A study of Mus musculus with 24 samples.

Results

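The promoters of oxidative phosphorylation genes were followed by ATAC-seq, which reads chromatin accessibility from transposase insertions, in germinal center (GC) B cells of 4 genotypes. Members were all protein-coding mouse genes whose symbols start with Nduf, Uqcr or Atp5, with Sdh followed by a, b, c or d, or with Cox4 to Cox8. This symbol rule found 98 gene records under 97 symbols, since Atp5o is annotated at 2 places. Of these, 95 lie on autosomes, and Ndufb11, Ndufa1 and Cox7b are X-linked and were left out. A consensus peak within 1 kb of a transcription start site (TSS) was found for 89 of the 95 autosomal records, which gave 95 member peaks of the 65483 peaks in the series. The rule uses gene symbols and positions and no measured value, and it was set with earlier results of these data known. By symbol, 12 peaks are at genes of assembly factors (Ndufaf and Sdhaf) and 83 at the other genes, most of them for structural subunits. Complexes were also assigned by the start of the symbol, which can differ from where a protein acts. A further peak is carried by 6 genes, among them Atp5d, Ndufb2, Ndufab1, Ndufv3 and Ndufv2. The 6 autosomal records with no such peak are Cox7b2, Cox6a2, Cox8b, Cox8c, Ndufa4l2 and the second Atp5o record. Cox6a2 and Cox8b encode muscle isoforms, Cox7b2 and Cox8c encode isoforms known from testis, and Ndufa4l2 is known for its induction under low oxygen.

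All mice carried a Cre recombinase gene at the Cγ1 locus (Cγ1cre/+), which is switched on in B cells as they respond to antigen, so Cre was also present in the controls. WT mice (n = 4) carried Cre alone, C mice (n = 4) also carried Crebbp fl/+, K mice (n = 4) carried Kmt2d fl/+, and CK mice (n = 5) carried both floxed alleles. The mice were 8 weeks old, on a C57BL/6J background, and were immunized with sheep red blood cells, and splenic GC B cells were sorted on day 10 after bead enrichment. Crebbp encodes a histone acetyltransferase and Kmt2d a histone H3 lysine methyltransferase, and floxing a single allele leaves the other intact, so the groups model haploinsufficiency and not full loss. Each library came from a separate mouse. Of the 24 samples of the series, 7 WT samples of sorted GC subsets had no counts in the table used and were not analysed here.

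Each library held 17483706 to 21857738 fragments in peaks, and the correlation of log2 counts between mice of a genotype was 0.979 to 0.989. The mice were described as female, yet 9 of the 17 libraries (WT 1 and 2, C 1 and 2, K 1, 3 and 4, CK 1 and 4) held at least 1421 fragments in 11 peaks of the Y chromosome, where the other libraries held at most 1. Counts of called members and the values of called genes are therefore also given with the Y signal as a covariate. All 14 GC B cell marker genes had a promoter peak, with summed CPM of 1088 to 1193 in WT and 995.6 to 1104 in CK, and none was called in a comparison with WT. Of 12 T cell markers 5 had a peak and Cd3e, Cd3g, Cd4, Cd8a, Cd8b1, Cd28 and Il7r had none, and the summed CPM was 95.13 to 98.76 in WT, 81.45 to 91.45 in C (all below WT), 86.07 to 100.1 in K and 82.63 to 98.81 in CK, where Cd5 was lost. Of 10 myeloid markers 4 had a peak, with 17.89 to 28.46 CPM over all genotypes, and Lyz2, Itgam, Csf3r, Mpo, S100a8 and S100a9 had none. Of 8 erythroid markers 4 had a peak, with 72.45 to 77.76 CPM in WT, 61.32 to 69.88 in C, 63.59 to 81.67 in K and 65.87 to 71.83 in CK. Hbb-bt was lost in C and CK, and Hba-a1, Alas2, Slc4a1 and Rhag had none. Of 6 plasma cell markers 5 had a peak, with 307.2 to 328.4 CPM in WT and 298.3 to 331.1 in CK, and none was called. The naive and memory B cell markers (8 of 8 with a peak) summed to 291.1 to 304.9 CPM in WT, 276.5 to 295.5 in C, 280.6 to 288.1 in K and 271.7 to 282.9 in CK, with K and CK all below WT. Fcer2a was lost in K and CK and Zbtb32 in CK. The part of these shifts in the member values below was not tested. The floxed exons were not checked in these counts, and only the promoter peaks of the 2 genes were read. The Crebbp promoter read 38.34 to 42.72 CPM in WT, 36.37 to 40.64 in C, 40.79 to 47.12 in K and 43.16 to 46.67 in CK. The Kmt2d promoter read 39.6 to 45.17 in WT, 39.78 to 42.81 in C, 40.04 to 45.85 in K and 42.68 to 46.52 in CK.

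Oxidative phosphorylation takes place in the inner mitochondrial membrane. Complex I (NADH dehydrogenase, the Nduf genes) and complex II (succinate dehydrogenase, the Sdh genes) pass electrons to complex III (cytochrome bc1, the Uqcr genes) and complex IV (cytochrome c oxidase, the Cox genes), while complexes I, III and IV pump protons that drive ATP synthase (complex V, the Atp5 genes). Most subunits are encoded in the nucleus and their promoters are known as housekeeping promoters rich in CpG dinucleotides, with the factors NRF1, GABP (an ETS factor) and YY1 as well-described regulators. GC B cells divide fast and are known for their use of fatty acid oxidation and oxidative phosphorylation.

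Exact motif letters were searched on both strands from 250 bases before to 50 bases after the start of each gene in the RefSeq promoter sequences (GRCm38.p6, the build of the peaks). Of the 89 member genes 73 matched an entry. Those that did not include Ndufaf6, Sdhc, Uqcrb, Atp5f1, Ndufs1, Cox4i1, Uqcrc2, Cox6c, Cox4i2, Uqcrq, Atp5s, Atp5mpl, Ndufb9, Ndufa2 and Atp5a1. The NRF1 letters GCGCATGC were found in 12 of 73 genes (16.44%), against 5.79% of the 10466 coding genes with a promoter peak and an entry. One NRF1 match per complex is printed to show how alike these stretches are, each with the match in capitals on the strand of the gene (GRCm38). The matches belong to Ndufa8 (complex I; chr2:36049328-36049357, minus strand), Sdhb (complex II; chr4:140961206-140961235, plus), Uqcrc1 (complex III; chr9:108936667-108936696, plus), Cox6a1 (complex IV; chr5:115349102-115349131, minus) and Atp5g2 (complex V; chr15:102671071-102671100, minus).
Ndufa8: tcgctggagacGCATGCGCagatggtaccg
Sdhb: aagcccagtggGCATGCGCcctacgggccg
Uqcrc1: gactccgctctGCGCATGCgcagcgcggct
Cox6a1: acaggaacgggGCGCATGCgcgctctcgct
Atp5g2: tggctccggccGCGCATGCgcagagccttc
The letters and their reverse complement overlap in GCGCATGCGC, so a stretch can match on both strands at once.

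The YY1 letters AAGATGGC were found in 10 of 73 member genes (13.7%), against 4.844% of the coding genes. In 9 of the 10 the match lay after the start site and read forward with the gene (90%), against 46.15% of all coding genes with a match. Those 9 matches started 11 to 39 bases after the start site. In Atp5j, whose peak is shared with Gabpa, the gene for a GABP subunit, the match lay before it, at position -88. The stretches below show 5 of the 9 forward matches and that of Atp5j, with the match in capitals (GRCm38): Ndufa9 (chr6:126849097-126849126, minus), Ndufc1 (chr3:51408915-51408944, minus), Ndufa3 (chr7:3617384-3617413, plus), Ndufs7 (chr10:80249462-80249491, plus), Atp5j2 (chr5:145191500-145191529, minus) and Atp5j (chr16:84835046-84835075, minus).
Ndufa9: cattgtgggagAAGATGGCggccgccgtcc
Ndufc1: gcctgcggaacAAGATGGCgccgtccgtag
Ndufa3: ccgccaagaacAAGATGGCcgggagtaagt
Ndufs7: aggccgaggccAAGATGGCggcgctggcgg
Atp5j2: accaggacttcAAGATGGCgtcactcggtg
Atp5j: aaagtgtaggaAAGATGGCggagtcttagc
The ATG in these letters can be a start codon, and whether it is one here was not tested.

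The ETS letters CCGGAAG were found in 21 of 73 genes (28.77%, against 19.19%), the CREB letters TGACGTCA in 4 (5.479%, against 3.621%) and the CCAAT box in 31 (42.47%, against 42.37%). The SP letters GGGCGG were found in 35 (47.95%), a lower share than the 68.13% of all coding genes. At least 1 of the NRF1, ETS, YY1 and CREB letters stood in 39 genes (53.42%, against 29.45%). A match is a description of the letters only and was not tested for binding.

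**Figure D1:**
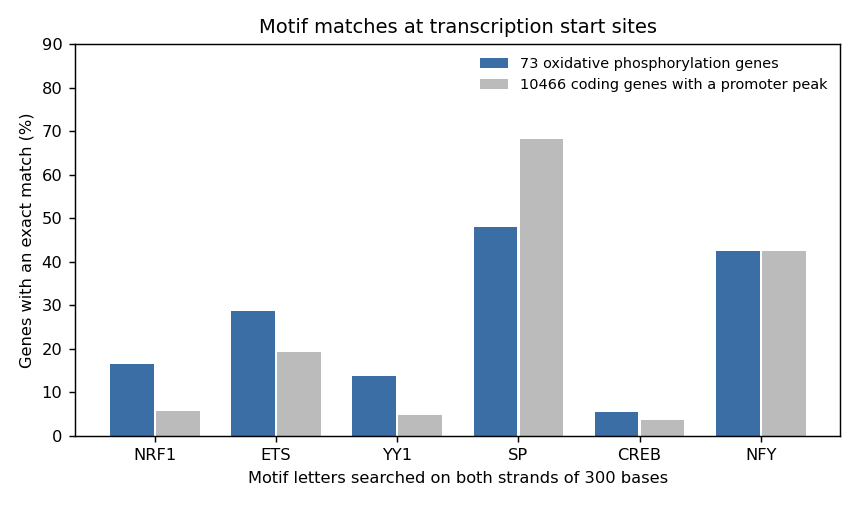
Share of genes with an exact match (y axis, percent) for the 6 motifs searched (x axis), for 73 oxidative phosphorylation genes (blue) and 10466 coding genes with a promoter peak (grey). NRF1 (16.44% against 5.79%) and YY1 (13.7% against 4.844%) stand above the coding genes, SP below (47.95% against 68.13%), and CCAAT level with them.

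The first question was how open these promoters are in WT and mutant GC B cells. Accessibility was expressed as CPM (fragments in peaks scaled to library size by TMM) and, to compare genes, as CPM per kb of peak. The median member peak held 25.27 CPM per kb over the 17 libraries, against 18.56 for the 15642 other autosomal coding promoter peaks and 4.817 for all peaks. Of the 95 member peaks 75 lay above the median of coding promoters and 11 in the top 10%. The 84 promoters of cytosolic ribosomal protein genes, a housekeeping group of like size, had a median of 27.83 CPM per kb, and the 86 of mitochondrial ribosomal protein genes 24.87.

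Levels overlapped between the complexes. Median CPM per kb was 24.69 for the 40 peaks of complex I, 33.42 for the 4 of complex II, 31.23 for the 8 of complex III, 23.6 for the 13 of complex IV and 27.99 for the 18 of complex V. Assembly factor genes were alike, with 25.49 for the 8 of complex I and 31.93 for the 4 of complex II. The spread within a complex was wider than between complexes: complex I ranged from 2.191 (the weaker peak of Ndufv2, a flavoprotein subunit) to 61.97 (Ndufs8, an iron-sulfur subunit), and complex V from 10.2 (Atp5l) to 93.43 (Atp5g1). Atp5g1, one of the genes for the c-ring subunit of ATP synthase, was at the 99.63 percentile of coding promoters. In complex III the range was 15.42 (Uqcr11) to 75.51 (Uqcrq, whose peak also holds the start of Gdf9), in complex IV 10.38 (Cox6c) to 53.08 (Cox8a), and in complex II only 25.97 (Sdha) to 36.23 (Sdhd).

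**Figure D2:**
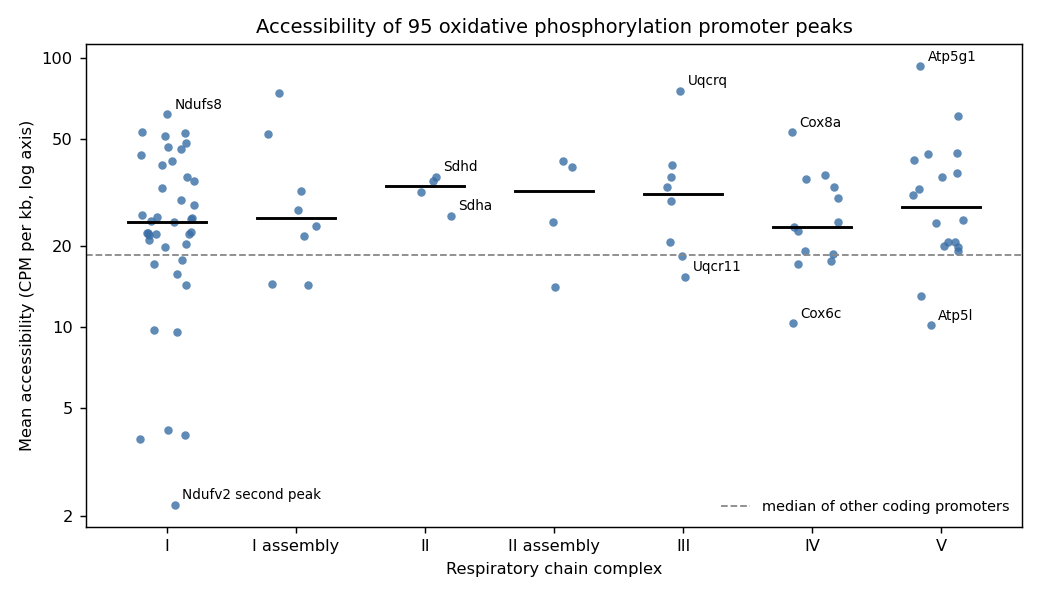
Mean accessibility of each of the 95 member peaks (y axis, CPM per kb over 17 libraries, log axis) by complex (x axis), with black lines at the medians of the complexes and a dashed line at the median of other coding promoters, 18.56. The highest is Atp5g1 (93.43) and the lowest a peak of Ndufv2 (2.191), and the medians of all 7 groups lie above the dashed line.

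Atp5g1 shows how little the open promoters moved between mice. Its CPM was 96.58, 99.79, 99.12 and 100.6 in WT and 102.6, 94.71, 98.02, 101.5 and 95.3 in CK. The genotypes overlapped, and the log2 fold change in CK was -0.008 ± 0.0381 (SE). The stretch upstream of its start that lies outside annotated exons (chr11:96075671-96075881, minus strand, GRCm38; bases -250 to -40) is printed because it is the most accessible promoter of the set and holds none of the NRF1, ETS, YY1 or CREB letters.
Atp5g1: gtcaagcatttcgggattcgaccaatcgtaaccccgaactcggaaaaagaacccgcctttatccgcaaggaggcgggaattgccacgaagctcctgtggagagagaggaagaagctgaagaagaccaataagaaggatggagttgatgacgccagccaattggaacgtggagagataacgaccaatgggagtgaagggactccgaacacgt
Across members the coefficient of variation between WT mice had a median of 4.915%, and it was under 10% in 84 of 95 peaks in WT mice, against 86 (C), 82 (K) and 83 (CK). The median of the other coding promoters in WT was 6.64%.

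Member peaks had a median length of 1433 bp, a GC content of 54.48% and a CpG observed to expected ratio of 0.671, close to those of other coding promoters (1401 bp, 55.84% and 0.614). A peak shared with the TSS of another gene was seen for 47 of 95 members (49.47%), against 23.03% of other coding promoters, and 37 (38.95%, against 9.443%) were shared with another coding gene. Ribosomal protein promoters were alike in this: 58.33% of the cytosolic and 47.67% of the mitochondrial ones were shared with another gene, and 25% and 40.7% with a coding gene. Several partners are mitochondrial themselves: Sdhd shares its peak with Timm8b, a carrier of proteins between the mitochondrial membranes, Ndufs6 with Mrpl36 and Ndufb5 with Mrpl47, genes of the mitochondrial ribosome. Others are not, such as Ndufa7 with Rps28 of the cytosolic ribosome and Cox4i1 with Emc8 of the endoplasmic reticulum. Counts at a shared peak cannot be assigned to either gene. Of the 95 peaks 87 held the TSS and 8 lay beside it. Just inside the 1 kb window were Cox4i2 (864 bp away) and the further peak of Ndufab1 (753 bp). Just outside were Ndufa4l2 (1205 bp; 115.4 ± 6 CPM in WT and 101.9 ± 6.445 in CK), Atp5l (1214 bp) and Sdha (1230 bp).

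Each mutant genotype was then compared with WT, to see whether loss of 1 allele of either gene or of both alters these promoters. The 3 comparisons share the same WT mice and are not independent. In bulk libraries a change in the accessibility of each cell and a change in the mix of cells cannot be told apart. A peak was called when its adjusted p was under 0.01 (edgeR quasi-likelihood test, Benjamini-Hochberg over all 65483 peaks). In C against WT 0 of 95 members were called, where 0.160% of all peaks were. At an unadjusted p under 0.05 there were 4 members, with 8.90% of all peaks as background, and DESeq2 called 0. In K against WT 1 of 95 was called (Cox6b2), where 1.48% of all peaks were. In CK against WT 2 of 95 were called, Cox4i2 and Cox6b2, both gained, where 6.84% of all peaks and 10.1% of other coding promoters were. At an unadjusted p under 0.05 there were 8 members in K (background 20.6%) and 9 in CK (background 28.9%). With the Y signal as a covariate the members called were 0 (C), 1 (K) and 3 (CK). More were called in K and CK when mice were blocked by replicate number, as given further below. The share of all peaks called in these refits was not set beside them.

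The ribosomal protein promoters were similar, with 2 of 84 cytosolic and 1 of 86 mitochondrial ones called in CK. In CK 6 members (6.316%) differed from WT by more than 0.2 on the log2 scale, against 30.64% of other coding promoters, and the shares were 4.211% against 14.05% in C and 5.263% against 25.82% in K. Ribosomal protein promoters had low shares too, 4.762% (cytosolic) and 3.488% (mitochondrial) in CK, so this is not particular to the members. The other coding promoters were not matched for level, with a median count of 564.6 against 776.6 for members. The 95% interval of the change lay wholly within 1.25-fold in either direction for 89 of 95 C values, 85 K values and 84 CK values, against 66.66%, 57.3% and 56.74% of other coding promoters. The median SE of a member was 0.0583 (C), 0.0587 (K) and 0.0554 (CK), smaller than that of other coding promoters (0.0719, 0.0719 and 0.0683).

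Median log2 fold changes of the 95 peaks were -0.0274 (C), 0.0406 (K) and 0.0285 (CK), beside -0.0115, 0.0558 and 0.0553 for other coding promoters and -0.0003, 0.0015 and 0.0029 for all peaks. The share of members above 0 was 29.47% (C), 76.84% (K) and 64.21% (CK). These shares depended on the scaling: over 6 scalings they ran from 29.5 to 48.4% (C), 37.9 to 77.9% (K) and 30.5 to 68.4% (CK), so no common direction is given for the set. Relative to other coding promoters the member median in CK was lower by 0.0199 to 0.0275 under the 6 scalings. Most of these apply a single factor per library, which shifts both medians alike and can hardly alter the difference. Only the corrections for GC content (0.0199) and for peak level (0.0275) could alter it.

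**Figure D3:**
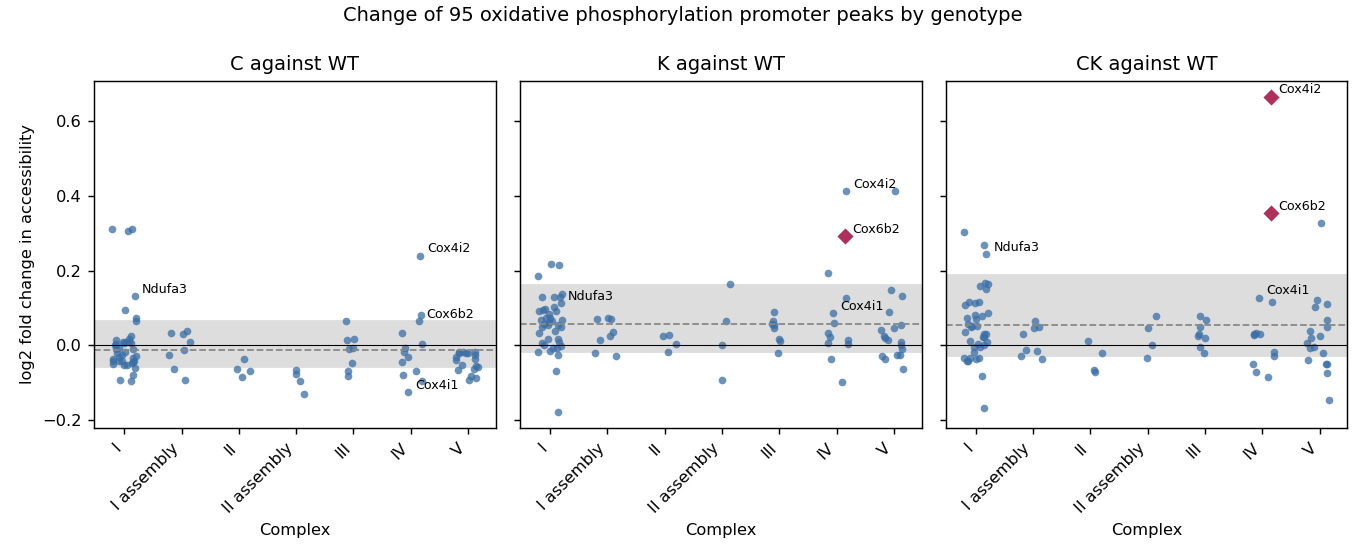
log2 fold change against WT (y axis) of each of the 95 member peaks by complex (x axis) in C, K and CK, with called peaks as diamonds and the middle quartiles and median of other coding promoters as a grey band and dashed line. Most members lie near 0, and Cox4i2 (0.67) and Cox6b2 (0.35) stand above the rest in CK.

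Member fragments made up 0.7412 ± 0.002741% (SD, n = 4) of coding promoter fragments in WT, 0.7381 ± 0.008638% in C (n = 4), 0.7392 ± 0.003512% in K (n = 4) and 0.7346 ± 0.009954% in CK (n = 5). These ranges overlapped.

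The members called against WT, Cox4i2 and Cox6b2, encode isoforms of complex IV subunits that are used in particular tissues. Cox4i1, a common isoform, was called in CK against C, as given below. In CK against WT 2.11% of members were called and 6.84% of all peaks. These calls are therefore not read as a result about tissue isoforms, a list chosen with earlier results known. Cox4i2 encodes the isoform of subunit 4 known from lung and from oxygen sensing, Cox6b2 a testis isoform of subunit 6b, and Cox7a1 the heart and muscle isoform of subunit 7a. These are the 3 of 8 listed tissue isoforms with a peak, and the other 5 are the genes without one.

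The Cox4i2 peak (ENSMUSG00000009876.13; chr2:152755958-152757339, GRCm38) lies inside the gene, 864 bp from an annotated start downstream of the gene's 5′ end and more than 1 kb from that end, with 1217 bp in introns and 165 bp in exons, and is shared with no other gene. It is not a member where a window of 500 bp or the gene's 5′ end alone is used. Its CPM was 23.36, 17.39, 18.65 and 20.82 in WT mice and 23.03, 20.8, 26.29 and 24.64 in C mice. The K mice had 28.28, 20.78, 28.31 and 29.11 CPM and the CK mice 28.75, 35.97, 34.79, 31.03 and 28.29. Every CK mouse lay above every WT and every C mouse, K overlapped with WT through K 2 alone, and C overlapped with WT. Means were 20.06 ± 2.619 (SD, n = 4), 23.69 ± 2.341 (n = 4), 26.62 ± 3.912 (n = 4) and 31.77 ± 3.482 (n = 5). The log2 fold change was 0.24 ± 0.1056 (SE, adjusted p = 0.502) in C, 0.41 ± 0.1051 (adjusted p = 0.0212) in K and 0.67 ± 0.09932 (adjusted p = 9.07e-05) in CK, the last a 1.587-fold gain with a 95% interval of 0.45 to 0.88 on the log2 scale. The CK value with the Y signal as a covariate was 0.66 (adjusted p = 5.77e-05). Without K 2 the K value was 0.51 (adjusted p = 0.00487), which passes the threshold. K 2 is the only K library without Y signal, so the K mice left in that refit all carry it. With the Y signal as a covariate and all mice kept, Cox4i2 was not called in K. Of 4 other peaks within 20 kb 1 was also gained in CK, and the nearest TSS of another coding gene is that of Id1, 19707 bp away.

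The Cox6b2 peak (ENSMUSG00000051811.14; chr7:4751895-4753484) holds its TSS and no other, with 1005 bp in exons, 195 bp in introns and 390 bp outside the gene. Its CPM was 24.85, 25.74, 23.29 and 23.76 in WT mice and 27.8, 25.62, 22.7 and 25.86 in C mice. It was 30.57, 27.92, 30.25 and 30.73 in K mice and 32.2, 29.94, 30.53, 32.57 and 30.71 in CK mice. All K and CK mice lay above all WT and all C mice, which overlapped with each other. Means were 24.41 ± 1.103 (SD, n = 4) in WT, 25.49 ± 2.104 (n = 4) in C, 29.87 ± 1.312 (n = 4) in K and 31.19 ± 1.137 (n = 5) in CK. The log2 fold change was 0.06 ± 0.06352 (SE, adjusted p = 0.83) in C, 0.29 ± 0.06309 (adjusted p = 0.00794) in K and 0.35 ± 0.05989 (adjusted p = 0.000311) in CK, a 1.278-fold gain. With the Y signal as a covariate these were 0.26 (adjusted p = 0.00845) in K and 0.36 (adjusted p = 5.03e-05) in CK. The call in K was lost when any of several libraries was left out (adjusted p up to 0.0337). The upstream stretch between its start and the neighbouring exon of Fam71e2 (chr7:4753095-4753225, minus strand, GRCm38; bases -131 to -1) is printed because Cox6b2 was called in both K and CK, and it holds none of the NRF1, ETS, YY1 or CREB letters.
Cox6b2: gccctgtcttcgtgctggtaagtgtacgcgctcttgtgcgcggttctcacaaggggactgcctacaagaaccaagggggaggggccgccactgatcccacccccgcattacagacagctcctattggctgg
The nearest TSS of another coding gene is that of Kmt5c, 11780 bp away, and the 1 other peak within 20 kb was not called.

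Cox7a1, the third of these isoforms, read 26.23, 23.81, 24.98 and 26.19 CPM in WT and 28.65, 25.74, 26.17, 26.65 and 29.9 in CK. The groups overlapped through CK 2 and CK 3, and the log2 fold change of 0.12 ± 0.06024 (SE) did not pass (adjusted p = 0.207).

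The common counterparts of these isoforms, which most cells use, were not called against WT. Cox4i1 (chr8:120666148-120669087, shared with Emc8 and Gm27021) read 58, 57.49, 50.47 and 54.27 CPM in WT mice and 50.36, 48.99, 52.22 and 50.23 in C mice. K mice had 65.7, 59.47, 52.23 and 56.33 CPM and CK mice 62.48, 57.99, 58.78, 61.06 and 60.27. CK and WT overlapped narrowly, and CK lay above C throughout. Its log2 fold change in CK was 0.13 (adjusted p = 0.118), that of Cox6b1 was 0.03 ± 0.07647 (SE, adjusted p = 0.826) and that of Cox7a2 0.03 ± 0.04881 (adjusted p = 0.735). The ratio of Cox4i2 to Cox4i1, both per kb of peak, was 0.7756 ± 0.09274 (SD, n = 4) for WT, 0.9977 ± 0.07532 for C, 0.9779 ± 0.1865 for K and 1.127 ± 0.1542 for CK (n = 5). That of Cox6b2 to Cox6b1 was 0.9042 ± 0.01931 in WT and 1.138 ± 0.1376 in CK, and that of Cox7a1 to Cox7a2 0.8899 ± 0.06977 and 0.9449 ± 0.08226. All CK mice lay above all WT mice in both of the first ratios. So did all C mice in the ratio of Cox4i2 to Cox4i1 (lowest C 0.9032, highest WT 0.8568). All K mice did in that of Cox6b2 to Cox6b1 (lowest K 1.045, highest WT 0.9257). The latter ratio had means of 0.9591 ± 0.07385 (SD) in C and 1.091 ± 0.05102 in K. Cox4i2 and Cox6b2 were called in CK, and their own CPM already separated CK from WT. The separation of CK in their ratios is therefore not a further result. The same holds for K in the ratio of Cox6b2 to Cox6b1. How often the ratios of other pairs of peaks separate the genotypes was not counted.

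**Figure D4:**
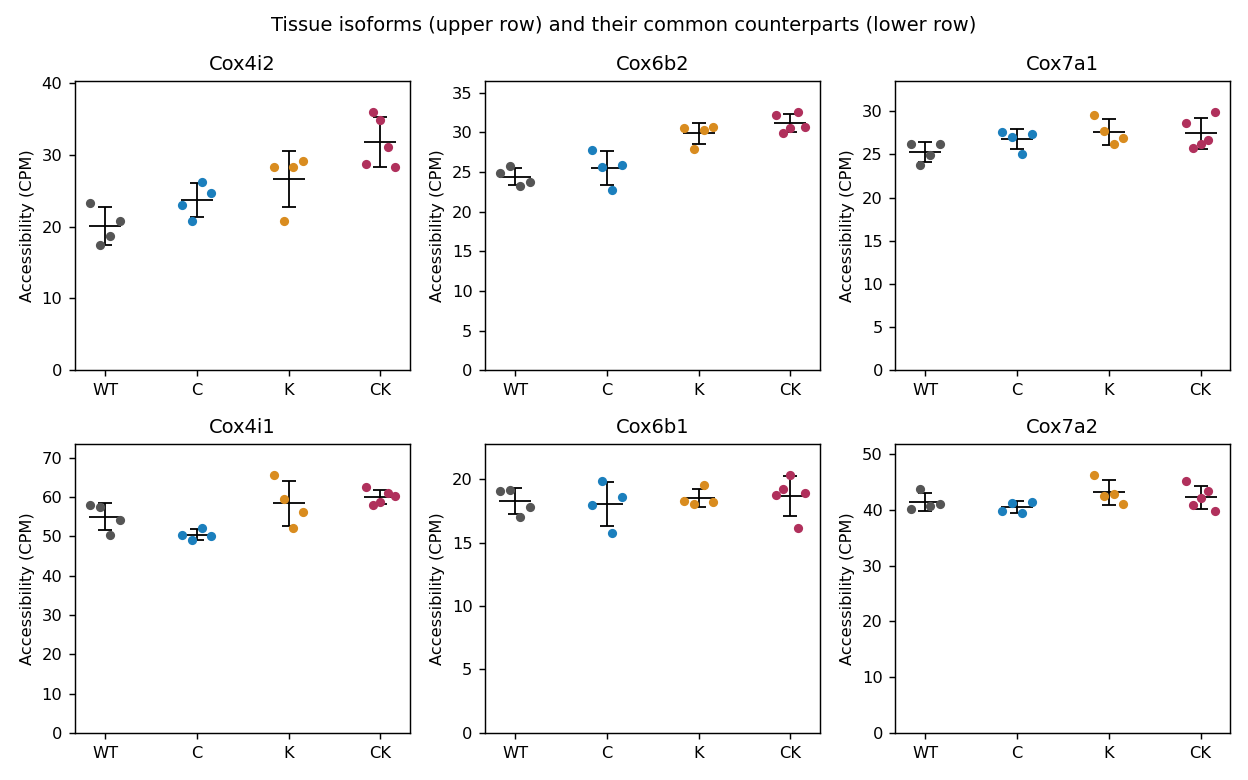
Accessibility (y axis, CPM) of 3 tissue isoforms of complex IV (upper row) and their common counterparts (lower row) in each mouse by genotype (x axis), with mean and SD. Cox4i2 (mean 20.06 in WT, 31.77 in CK) and Cox6b2 (24.41 and 31.19) separate CK from WT, and in the other 4 genes CK overlaps with WT.

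Beside these, the members closest to the threshold belonged to complex I. Ndufa3, an accessory subunit, read 31.39, 25.22, 27.51 and 25.47 CPM in WT and 33.23, 31.61, 31.99, 34.32 and 31.06 in CK. Only WT 1 reached the CK range, and the log2 fold change of 0.24 ± 0.07097 (SE) did not pass (adjusted p = 0.0206). With the Y signal as a covariate it did (0.25, adjusted p = 0.00893). Ndufv2, a subunit of the NADH-binding module, read 53.48, 55.98, 49.02 and 48.78 CPM in WT and 67.23, 59.69, 56.73 and 56.8 in K. The K mice all lay above WT, and the log2 fold change of 0.21 ± 0.06501 had an adjusted p of 0.0525 (0.0629 with the Y signal as a covariate). In C the 3 members with the lowest p were Cox4i2 (above), Cox4i1 (-0.13, adjusted p = 0.528) and Sdhaf2, an assembly factor that attaches the flavin cofactor to Sdha (-0.13, adjusted p = 0.53). None of these passed in C.

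The 4 genes of complex II, which also serves the tricarboxylic acid cycle, were not called in any comparison. Sdha, the flavoprotein, read 31.82, 31.75, 31.59 and 28.96 CPM in WT and 32.25, 31.39, 30.01, 29.34 and 30.02 in CK (log2 fold change -0.02 ± 0.05036, SE; adjusted p = 0.834). Sdhb, the iron-sulfur subunit, read 82.64, 78.7, 81.59 and 88.43 CPM in WT and 81.97, 79.15, 75.54, 79.09 and 79.8 in CK (-0.07 ± 0.0425; adjusted p = 0.321). WT and CK overlapped in both. The membrane anchors Sdhc (0.01 ± 0.05212; adjusted p = 0.916) and Sdhd (-0.07 ± 0.05439; adjusted p = 0.419) overlapped as well. In C all 4 were below 0 (-0.09 to -0.04), each with an adjusted p of at least 0.602.

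Complete separation of groups was also counted. In C 3 members had all mice on one side of all WT mice, Uqcrc2 above and Uqcrfs1 and Atp5o below, with 5.66% of all peaks as background for either direction. In K there were 2 above WT (Ndufv2 and Cox6b2, background 5.42% above), and in CK 4 (Ndufb9, Cox4i2, Cox6b2 and Ndufab1, background 6.59% above). As a share of 95 each of these is below its background.

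CK was compared with each single genotype, to see whether having both alleles floxed differs from 1. Against K 0 of 95 members were called, where 0.00916% of all peaks were, with 2 at an unadjusted p under 0.05 (background 7.35%) and 0 by DESeq2. Only Cox8a was fully separated (below K, background 0.820% below). Cox4i2 differed by 0.25 ± 0.09655 (SE) between CK and K, which did not pass (adjusted p = 0.521), and Cox6b2 by 0.06 (adjusted p = 0.891). The excess of the CK change over those of C and K added together was called for 0 members, where 0.0107% of all peaks were, with 1 at an unadjusted p under 0.05 (background 3.73%) and 0 by DESeq2, and for Cox4i2 it was 0.01 on the log2 scale. Both counts were also 0 with the Y signal as a covariate.

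Against C 2 of 95 members were called, where 1.68% of all peaks and 3.12% of other coding promoters were, and 16 were at an unadjusted p under 0.05 (background 21.2%). The called members were Cox6b2 (0.29 ± 0.05934, SE; adjusted p = 0.00507) and Cox4i1 (0.25 ± 0.05478; adjusted p = 0.00753). With the Y signal as a covariate 4 were called, these 2 (adjusted p = 0.00108 and 0.00439), Cox4i2 (0.42, adjusted p = 0.00728) and Ndufv2 (0.26, adjusted p = 0.00481). The share of all peaks called with this covariate was not set beside the 4. In the main fit Cox4i2 came close (0.43, adjusted p = 0.0104), and Sdhaf2 differed by 0.21 (adjusted p = 0.0287). The Cox4i1 call was lost when counts were scaled on coding promoter peaks alone (0.18, adjusted p = 0.0154). In 11 members all CK mice lay above all C mice (background 5.06% above): Ndufa12, Ndufa6 and Ndufab1 of complex I, Uqcrfs1 and Uqcrh of complex III, Cox4i1, Cox4i2 and Cox6b2 of complex IV, and Atp5h, Atp5j and Atp5g3 of complex V. None lay below. In either direction 15.5% of other coding promoters were separated in this comparison, against 11.6% of members.

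CpG content was examined within the set, because it marks housekeeping promoters. A CpG observed to expected ratio under 0.5 was found for 11 of 95 members (11.58%), against 35.34% of other coding promoters. Both members called in CK are among the 11 (Cox4i2 0.2362, Cox6b2 0.4079), while 0 of the 84 with a higher ratio were called. Among other coding promoters the shares called in CK were 7.001% under 0.5 and 11.85% at 0.5 or more. The members give no order to set beside these, with only 2 called and Cox4i2 left out by a 500 bp window. Across the 95 members the size of the CK change went with the CpG ratio at a Spearman rho of -0.229 and with CPM per kb at -0.223, and the peaks share libraries and are not independent. For other coding promoters the values were -0.099 and -0.595. Genes with and without a motif match differed little: the median log2 fold change in CK was 0.034 with NRF1 letters and 0.028 without, 0.001 and 0.031 for ETS, and 0.016 and 0.031 for YY1.

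**Figure D5:**
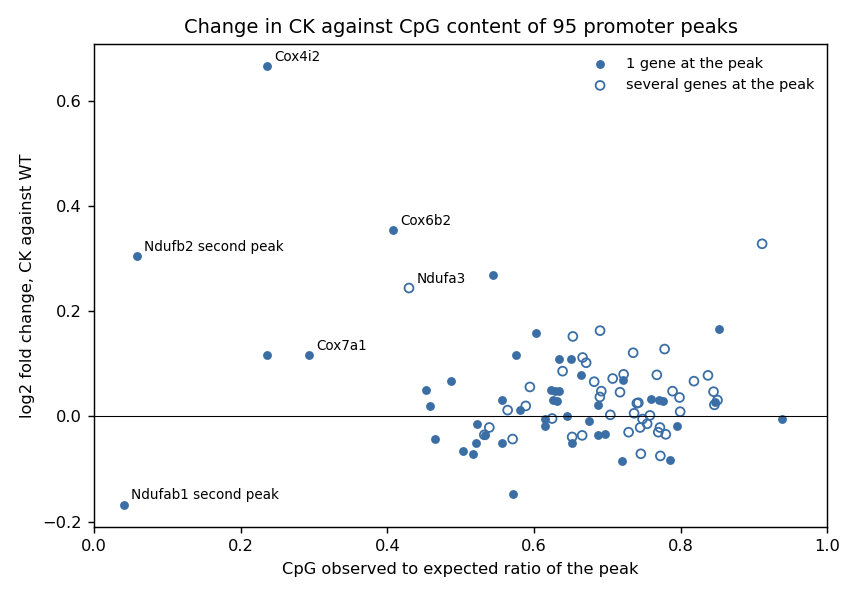
log2 fold change in CK against WT (y axis) and CpG observed to expected ratio (x axis) of the 95 member peaks, open circles for peaks at several genes. Cox4i2 (0.2362) and Cox6b2 (0.4079) are the called peaks, and the 84 peaks at 0.5 or above hold no called peak.

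Other genes of the pathway were read from lists. No peak was called in any comparison for 5 electron carrier genes such as Cycs (6 peaks), 28 further assembly factors (30 peaks), 14 genes of the tricarboxylic acid cycle and pyruvate dehydrogenase (16 peaks) or 15 of glycolysis (22 peaks). In CK the counts at an unadjusted p under 0.05 were 0 of 6, 3 of 30, 4 of 16 and 4 of 22, where 28.9% of all peaks were. Among 10 genes that transcribe and maintain mitochondrial DNA (13 peaks) 1 peak was called in CK, a gain, that of Polg, the mitochondrial DNA polymerase. A count of 1 of 13, like the 1 of 17 below, is near the 6.84% of all peaks called, so it says nothing about the list. It read 64.6, 68.98, 63.97 and 66.73 CPM in WT and 79.02, 74.68, 72.56, 85.27 and 84.7 in CK, without overlap (0.26 ± 0.05294, SE; adjusted p = 0.00154; 0.27 and 0.000867 with the Y signal as a covariate).

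Among 13 nuclear regulators of mitochondrial genes (17 peaks) 1 was gained in CK against WT, the promoter of Ppargc1a, the gene of the coactivator PGC-1α (chr5:51551834-51554155). It read 4.044, 5.118, 3.796 and 3.599 CPM in WT mice and 5.475, 5.684, 3.741 and 5.044 in C mice. Values were 5.519, 5.947, 5.862 and 5.629 CPM for K and 9.305, 8.561, 7.951, 7.72 and 6.511 for CK. Every CK mouse lay above every mouse of the other genotypes, at a low level, and the difference from K did not pass (0.48 ± 0.1245, SE; adjusted p = 0.227). The log2 fold change was 0.95 ± 0.1299 (SE, adjusted p = 3.67e-05) in CK and 0.47 (adjusted p = 0.0478) in K. Against C 2 of the 17 peaks were called, where 1.68% of all peaks and 3.12% of other coding promoters were. The list was chosen with earlier results known, so these 2 are not read as a result about it. Both Ppargc1a (0.68, adjusted p = 0.00245) and Yy1 (0.34 ± 0.07499, adjusted p = 0.00815) were gained in CK against C. For Yy1 the difference from WT of 0.29 did not pass (adjusted p = 0.0104). With the Y signal as a covariate the calls of Ppargc1a held in both comparisons (adjusted p = 7.13e-06 and 0.000609) and Yy1 passed in both (adjusted p = 0.00632 against WT and 0.00417 against C).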

How the data were processed

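Per the study's methods, ATAC-seq reads were aligned to mm10 with an nf-core pipeline. Per the file headers, fragments in consensus peaks were counted with featureCounts 2.0.1 (minimum overlap fraction 0.2, and a fragment may count in several peaks). The deposited table holds these raw counts of 17 libraries, with no normalization. Peaks were assigned to GENCODE TSSs within 1 kb (1000 bp). Counts were scaled by TMM and tested with edgeR 4.0.16 (R 4.3.3; quasi-likelihood F test, 1 coefficient per genotype, all 17 libraries), with Benjamini-Hochberg adjustment over 65483 peaks and a threshold of 0.01. All peaks passed a minimum summed count of 10. The median biological coefficient of variation was 0.0946. DESeq2 1.42.0, other scalings, GC correction, a Y signal covariate, a replicate block and leaving out each mouse were alternatives. log2 fold changes and SE come from the edgeR fit, and a value after ± is an SD where n follows.

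The members and lists were chosen with earlier results of these data known. Genes named were the called members (or the 3 with the lowest p where fewer than 3 were called), the highest and lowest per complex, complex II, tissue isoforms with a peak and called genes of each list. Members named for separation of groups, motifs, neighbours or distance to the TSS were chosen after their values were seen. The values of 1 member gene are not reported here, and it is kept in the counts.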

Additional observations from a re-analysis of the deposited data

Results flagged for a closer look

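In 96 groups of 4 or 5 mice (21 member peaks, 2 summaries over the members and the mitochondrial share, in each of 4 genotypes), 5 held a mouse far from the others by Dixon's ratio, where chance gives about 1 in 20, or 4.8. In K, mouse K 2 had 20.78 CPM at Cox4i2, with the other K mice at 28.28 to 29.11. The same mouse, the only K mouse without Y signal, had 27.92 CPM at Cox6b2, with the others at 30.25 to 30.73. WT 4 had 28.96 CPM at Sdha, with the others at 31.59 to 31.82. CK 5 had 30.77 CPM at Uqcr11, with the others at 24.9 to 26.39. WT 1 had 1.807% of its fragments in peaks of the mitochondrial chromosome, with the other WT mice at 1.016 to 1.053%.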

How the results depend on the processing

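Cox4i2 and Cox6b2 in CK against WT were called under all 13 alternative fits and with each mouse left out (Cox4i2 log2 fold change 0.60 to 0.75, adjusted p 5.4e-08 to 0.000926; Cox6b2 adjusted p 4.11e-06 to 0.00246). The 11 results for named genes include some that were not called in the main fit. Over them 289 refits kept the status, called or not called, and 41 gained or lost a call. None changed direction. The call of Cox6b2 in K held in 9 of 13 alternative fits and with 8 of 17 mice left out in turn. The counts of 0 called members in C, in CK against K and in the excess over the sum held in every refit. The main counts of called members were 1 in K, 2 in CK and 2 in CK against C. Scaling on coding promoter peaks gave 0 in K and 0 in CK against C, as did GC content bins. DESeq2 gave 2 and 4. A fit with only the genotypes compared gave 0 in K, and the Y signal covariate 4 in CK against C. An adjusted p under 0.05 gave 2 in K, 4 in CK and 5 in CK against C, and a 1.5-fold minimum 0, 1 and 0. In CK a TSS window of 500 bp and the gene 5′ end alone each gave 1, since they leave out the Cox4i2 peak, and leaving out peaks with another gene within 1 kb gave 1 in CK against C. Leaving out 1 mouse gave 0 to 2 in K, 2 to 3 in CK and 0 to 4 in CK against C.

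The replicate block gave 2 in K, 5 in CK and 5 in CK against C, and the block with GC content bins gave 6 in CK. For these and the other refits the share of all peaks called was not set beside the member counts. A rise in the members can therefore go with a rise over all peaks. Same-numbered mice correlated over 0.1 in 12 of 24 pairs (-0.093 to 0.224, median 0.0998) and differently numbered mice in 15 of 84 (median -0.00869). The main fit did not pair mice by number, since not every same-numbered pair was over 0.1. That rule cannot exclude a structure shared by number. Mice 1 and 2 had a higher mean log2 CPM over the members than mice 3 and 4 in every genotype. The main counts of called members leave this out, and the block counts above allow for it. Median log2 fold changes moved with scaling on coding promoter peaks (K -0.0216, CK -0.0326, CK against C -0.0258), and in CK with GC content bins (-0.0174) and with the block and GC bins (-0.0203). With each mouse left out they were -0.04 to -0.0132 in C, 0.0212 to 0.0573 in K, 0.0123 to 0.0351 in CK, -0.0296 to 0.0032 in CK against K and 0.0243 to 0.0536 in CK against C. Cox6b2 in K lost its call with scaling on coding promoter peaks (adjusted p = 0.0224), GC content bins (0.0223), the block with GC bins (0.0151) and only the genotypes compared (0.0177), and with 9 of 17 mice left out in turn. Its call in CK against C had an adjusted p of 0.000662 to 0.0259 over all refits. Cox4i1 in CK against C was lost with scaling on coding promoter peaks (0.0154) and GC content bins (0.02), and with single mice left out (up to 0.031). Ndufa3 in CK passed with the block (0.26, adjusted p = 0.00343) and without WT 1 (0.31, adjusted p = 0.0045). The cause of these shifts was not tested. The 95% intervals, which rest on the spread between mice, reached a median of 0.12 on the log2 scale to either side in CK.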

Other observations

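Peaks of the mitochondrial chromosome, which encodes the remaining subunits of complexes I, III, IV and V, held 1.227 ± 0.3871% of fragments in WT (SD, n = 4), 1.085 ± 0.1316% in C (n = 4), 1.049 ± 0.2384% in K (n = 4) and 1.072 ± 0.1968% in CK (n = 5), with overlapping ranges.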
